A study of Arabidopsis thaliana with 9 samples.

Results

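The loci described here were nuclear loci that stayed without a read in wild-type Arabidopsis thaliana leaves, were transcribed in homozygous ddm1 leaves, and were transcribed at an intermediate, low level in the F1 of the cross. A locus was taken when its estimated count was 0 in all 3 Col-0 libraries and 10 or more in each of the 3 ddm1 libraries, and when its mean TPM in F1 was 0.1 to below 0.4 times its mean TPM in ddm1. TPM is a length-scaled abundance with the same total in each library. The rule found 382 members among 33323 nuclear loci. In all, 917 loci met the count conditions, and those that were not members comprised 276 with an F1 share of the ddm1 level below 0.1 and 259 with a share of 0.4 or more. Another 3 loci were left out beforehand by name. Because all 3 groups entered the rule, the members' own levels are given below as a description and not as tests.

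The F1 plants came from Col-0 crossed with ddm1 and were DDM1/ddm1 heterozygotes. The ddm1 plants were homozygous mutants of the second generation, and the comparison group was wild-type Col-0. Leaves of plants 4 to 5 weeks old were used in every group, with 3 libraries each that are described as independent biological replicates, and the labels neither name the ddm1 allele nor say whether plants were pooled. RNA was depleted of ribosomal RNA and read from one end in 50-base reads.

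Libraries held 15996806 to 22425699 estimated counts, of which 5212809 to 7574828 were on nuclear loci, and organelle loci took 70.6% to 72.8% of the counts in F1, 66.2% to 67.9% in ddm1 and 64.7% to 68.9% in Col-0. The DDM1 transcript (AT5G66750) reached at most 0.370 CPM (counts scaled to library size) in F1, 0.135 in ddm1 and 0.556 in Col-0, too few to check the genotypes. All 4 leaf markers were detected in every library, the seed markers SESA1, SESA4 and CRA1 were at 0, and the flower markers AP3, AG and PI did not exceed 0.852 TPM. The root marker PYK10 had 0.122, 0 and 2.24 TPM in F1, 0 in every ddm1 library and 0.123, 0 and 0 in Col-0. It was thus highest in F1 library 3. The leaf markers were low in the F1 libraries. LHCB1.1, a light-harvesting protein gene, had 15.9, 19.2 and 30.5 TPM in F1 against 490, 578 and 2146 in ddm1 and 1194, 2204 and 755 in Col-0. RBCS1A, a Rubisco subunit gene, had 259 to 724 TPM in F1, 952 to 3490 in ddm1 and 1119 to 4261 in Col-0. The part of this difference in the values of F1 below was not tested. A fall in the number of cells of a type and a fall in RNA per cell cannot be told apart in such bulk samples.

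DDM1 is a chromatin remodelling ATPase that lets DNA methyltransferases reach DNA wrapped in heterochromatin. Without it, methylation is lost from transposons over generations and many of them are transcribed. Transposons are grouped by how they move. Copia and Gypsy elements are retrotransposons that carry long terminal repeats and are copied through RNA, LINEs are retrotransposons that lack such repeats, and CACTA, hAT and MULE elements are cut and pasted as DNA. In an F1 plant, each locus is present on a chromosome from Col-0 and on a chromosome from the ddm1 parent.

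Of the 382 members, 336 were transposable element (TE) genes, out of 3881 TE genes in the tables. By sequence similarity, 125 members belonged to Gypsy, 48 to LINE, 45 to Copia, 40 to CACTA, 19 to MULE, 4 to hAT and 1 to Helitron, and 100 could not be assigned. The members lay on all 5 chromosomes, with 69, 83, 75, 70 and 85 on chromosomes 1 to 5. By annotation, 30 members were protein-coding. Over all 382 members the median annotated span was 2707 bases, and 321 of the 382 had a single exon.

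The ends of the CACTA elements are shown first, because 3 of the 8 most highly transcribed members, described below, sat inside them. CACTA elements end in an inverted repeat whose first bases give them their name, which the transposase recognises. A search for CACTACAA at the left, TTGTAGTG at the right and the same 3 bases just outside both ends found 87 elements in the nuclear genome, and 14 members lay in 13 of them. The outermost 40 bases of 4 elements are given from the plus strand of TAIR10, 5′ to 3′. Capitals mark the terminal repeat, with the GAAAA or TTTTC next to it where present. The elements span chr2:1670446-1672757 (AT2G04770), chr2:5338034-5346286 (AT2G12990), chr3:11560702-11569513 (AT3G29730) and chr5:6348990-6351608 (AT5G19015).
AT2G04770 left end: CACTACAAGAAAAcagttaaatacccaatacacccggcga
AT2G04770 right end: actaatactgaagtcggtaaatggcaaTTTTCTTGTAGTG
AT2G12990 left end: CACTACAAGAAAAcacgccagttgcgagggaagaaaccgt
AT2G12990 right end: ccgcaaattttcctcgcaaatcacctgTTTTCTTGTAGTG
AT3G29730 left end: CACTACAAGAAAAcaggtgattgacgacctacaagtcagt
AT3G29730 right end: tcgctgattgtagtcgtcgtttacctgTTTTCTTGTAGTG
AT5G19015 left end: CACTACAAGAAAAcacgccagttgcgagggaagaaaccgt
AT5G19015 right end: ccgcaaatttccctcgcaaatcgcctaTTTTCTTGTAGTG

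The left ends shown for AT2G12990 and AT5G19015 were identical over these 40 bases. The sequence CACTACAAGAAAA opened 8 of the 13 elements that held members and 37 of the 87 elements in the genome (42.5%), counted at the left end on the plus strand. The match describes these letters only. AT2G11983, annotated as a pseudogene of the SURF1 gene AT3G17910 and not as a transposon, lay in a CACTA element that began with CACTACAA but lacked GAAAA, at chr2:4829799-4832203. It had 6.61, 2.47 and 6.89 TPM in F1 and 23.4, 17.8 and 14.8 in ddm1, so the groups did not overlap. AT2G11983 is not among the loci the naming rule chose and was picked out after its values were seen.

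Long terminal repeats hold the promoter of a retrotransposon, and both copies are identical when an element inserts. Paired repeats that began with TG, ended in CA and were flanked by the same 5 bases enclosed the midpoint of 31 members. Of these, 13 were Gypsy, 11 Copia and 7 unassigned. Annotated spans could reach past the repeats, as for AT1G43060 at chr1:16189210-16203832, whose element lay at chr1:16191048-16198716. The repeats of an element were 89.7% to 100% identical, with a median of 96.7%, and 3 elements had identical repeats. Among these was the Copia element of AT5G35820 at chr5:13994795-14000224, whose start and end of the first repeat are shown on the strand of the gene, with the TG and CA in capitals. Below it stand the same parts of the repeats of 3 Copia members on chromosome arms, whose repeats resemble each other and not that of AT5G35820. Their elements lie at chr5:22002017-22006884 (AT5G54203), chr1:21346162-21351041 (AT1G57640) and chr4:11676468-11681340 (AT4G22040), all with the gene on the minus strand of TAIR10.
AT5G35820 repeat start: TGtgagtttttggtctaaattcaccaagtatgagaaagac
AT5G35820 repeat end: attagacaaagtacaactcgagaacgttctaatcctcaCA
AT5G54203 repeat start: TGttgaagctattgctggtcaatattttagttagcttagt
AT5G54203 repeat end: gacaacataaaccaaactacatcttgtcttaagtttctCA
AT1G57640 repeat start: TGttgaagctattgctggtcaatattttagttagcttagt
AT1G57640 repeat end: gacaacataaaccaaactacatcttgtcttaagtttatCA
AT4G22040 repeat start: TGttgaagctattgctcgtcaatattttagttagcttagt
AT4G22040 repeat end: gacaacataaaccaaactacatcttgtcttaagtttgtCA

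AT5G35820 had 4.75, 3.97 and 4.48 TPM in F1 and 11.3, 12.7 and 17.2 in ddm1. Its F1 libraries were close to each other and all lay below the ddm1 libraries. The 3 arm copies were weaker and less even. AT5G54203 had 0.00647, 0.298 and 1.2 TPM in F1 and 2.97, 1.84 and 1.38 in ddm1. AT1G57640 had 0.144, 0.242 and 0 TPM in F1 and 1.21, 1.41 and 0.897 in ddm1. AT4G22040 had 0.375, 0.265 and 0.329 TPM in F1 and 0.267, 0.996 and 1.38 in ddm1, so its groups overlapped. Of the 50-base windows of these 3 genes, only 17.7%, 15.6% and 19.3% occurred once in the nuclear genome. How reads were divided among the copies is thus uncertain. The share was 48.6% for AT5G35820, so the same limit applies to it. Its copies AT4G05133 and AT2G03100 had F1 to ddm1 ratios of 0.586 and 0.170. These 4 elements were picked after their values were seen.

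Summed over the members, the level was 539, 523 and 723 TPM in F1, against 2413, 2491 and 2635 TPM in ddm1 and, by the rule, 0 in Col-0. F1 libraries thus held 21.5%, 20.8% and 28.8% of the mean ddm1 sum, a mean of 23.7% ± 4.43 (SD, n = 3). The share was 26.0% when TPM was scaled to nuclear loci alone. Members took 0.346% to 0.447% of the nuclear counts in F1 and 1.27% to 1.39% in ddm1. F1 library 3 stood above the other F1 libraries in this sum, and none of the F1 sums reached a ddm1 sum.

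**Figure D1:**
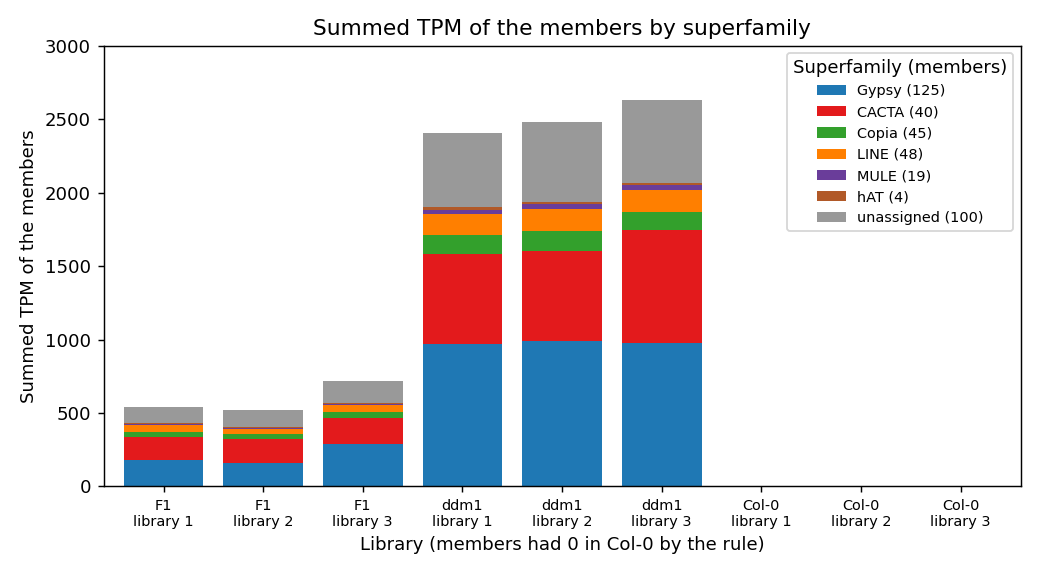
Summed TPM of the members (y axis) in each library (x axis; 3 F1, 3 ddm1 and 3 Col-0 libraries), stacked by superfamily; 1 Helitron member is not drawn. The F1 bars reach 523 to 723 TPM and the ddm1 bars 2413 to 2635 TPM, with Gypsy and CACTA as the largest assigned parts, and Col-0 is empty because the rule required 0.

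Single members reached 0.0192 to 39.6 TPM on average in F1, with a median of 0.592, and 0.111 to 165 TPM in ddm1, with a median of 2.41. The median ratio of F1 to ddm1 was 0.244, and the quartiles were 0.170 and 0.311. The bounds fall within a continuous range. At the lower bound, the Gypsy genes AT4G06621 and AT1G42370 lay just outside at 0.0982 and 0.0987, and the Gypsy genes AT5G30762 and AT3G43130 just inside at 0.101 and 0.101. At the upper bound, the Copia gene AT3G45775 and the LINE gene AT2G10900 lay just inside at 0.398 and 0.398, and the unassigned AT4G07530 and the Gypsy gene AT3G30838 just outside at 0.4003 and 0.402. In 350 of the 382 members, every F1 library was below every ddm1 library. The same held for 19.5% of the nuclear loci with some TPM, but since the rule used this contrast the members' count is a description.

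The 8 most highly transcribed members in ddm1 were CACTA and Gypsy genes. AT2G04770, the small CACTA gene on chromosome 2 (1671116 to 1672075, plus strand) whose element ends are shown above, was the highest, with 35.3, 45.6 and 38.1 TPM in F1 and 127, 134 and 235 in ddm1. Its F1 libraries were alike, and ddm1 library 3 was the highest of all. The CACTA gene AT3G32226 (chromosome 3, 13198631 to 13202352) had 15.4, 12.7 and 15.8 TPM in F1 and 93.2, 78.7 and 87.1 in ddm1. AT2G12990 (chromosome 2, 5341984 to 5342694) had 16.1, 18.7 and 17.5 TPM in F1 and 86.1, 66.4 and 84.0 in ddm1. Both were even within each group, and F1 and ddm1 did not overlap.

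AT3G42650, a CACTA gene with 97.2% unique windows, had 17.9, 11.6 and 21.0 TPM in F1 and 76.5, 76.1 and 72.3 in ddm1. AT3G29730, a CACTA gene with 19.4% unique windows, had 21.6, 23.6 and 17.5 TPM in F1 and 56.3, 61.0 and 56.0 in ddm1. Its ratio of 0.362 was the highest among these 8 members. The other 3 of these 8 were Gypsy genes. AT4G06615 had 8.70, 6.44 and 16.9 TPM in F1 and 70.2, 51.7 and 100.1 in ddm1. AT3G43563 had 13, 13.4 and 20.4 TPM in F1 and 68.5, 73.3 and 49.3 in ddm1. AT1G40121 had 3.97, 4.55 and 10.2 TPM in F1 and 59.0, 44.5 and 49.1 in ddm1. In all 3 Gypsy genes F1 library 3 was the highest F1 library, and no F1 library reached the ddm1 range. Unique windows made up 50.5%, 82.0% and 14.7% of these 3 genes. The shares were 40.2% for AT2G04770, 67.4% for AT3G32226 and 54.8% for AT2G12990. Reads of several of these 8 members may thus have been shared with copies.

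**Figure D2:**
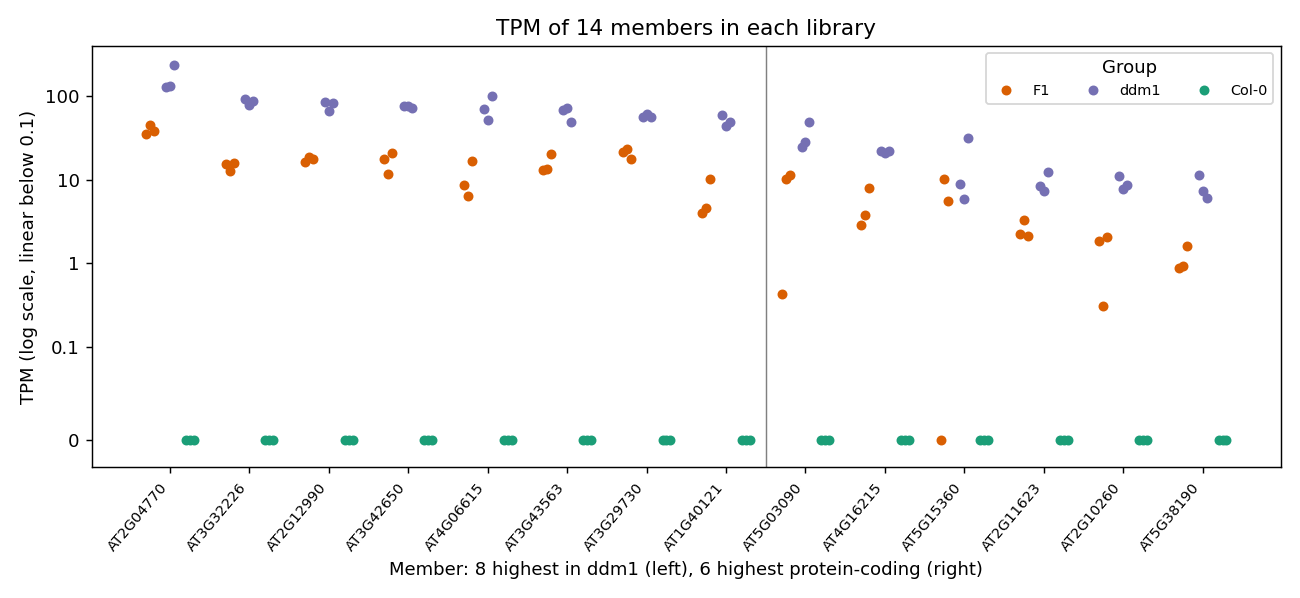
TPM (y axis, log scale that is linear below 0.1) of the 8 members highest in ddm1 and the 6 protein-coding members highest in ddm1 (x axis), with 1 point per library for F1, ddm1 and Col-0. F1 points lie below the ddm1 points for all but AT5G15360, whose F1 library 2 (10.3 TPM) exceeded ddm1 libraries 1 and 2 (8.98 and 5.90 TPM), and all Col-0 points are at 0 by the rule.

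Protein-coding annotations covered 30 members. AT5G03090, annotated as Mto 1 responding down protein (chromosome 5, 725281 to 725962), was the highest, with 0.432, 10.3 and 11.4 TPM in F1 and 24.7, 28.4 and 49.6 in ddm1. F1 library 1 held 1 count and the other two F1 libraries 26 and 28. AT5G15360, an uncharacterized gene with 7 exons (chromosome 5, 4987437 to 4989182), had 0, 10.3 and 5.52 TPM in F1 and 8.98, 5.90 and 31.8 in ddm1. It had no reads in F1 library 1, and F1 and ddm1 overlapped. All 50-base windows of AT5G03090 and AT5G15360 were unique.

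AT4G16215 had 2.83, 3.79 and 7.98 TPM in F1 and 22.3, 21.0 and 22.1 in ddm1. AT2G11623, annotated as a plant protein of unknown function, had 2.26, 3.26 and 2.12 TPM in F1 and 8.35, 7.32 and 12.2 in ddm1. AT2G10260, a gene of the Ulp1 protease family whose domain is carried by some plant DNA transposons, had 1.87, 0.312 and 2.04 TPM in F1 and 11.1, 7.69 and 8.6 in ddm1. For these 3 genes F1 and ddm1 did not overlap.

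The myosin heavy chain-like gene AT5G38190 (chromosome 5, 15234188 to 15237906) had 0.876, 0.929 and 1.62 TPM in F1 and 11.4, 7.44 and 5.98 in ddm1. It lay between paired terminal repeats of 452 bases that were 95.4% identical. Of 30 nuclear loci with this annotated product in the tables, 5 were members and none of the others met the count conditions. The other member genes were AT1G32010, AT4G06688, AT3G43148 and AT5G32590, with means of 0.188 to 0.375 TPM in F1 and 0.736 to 2.62 in ddm1. In Col-0, 16 of the 30 had 0 counts in all 3 libraries, and 4 had none in any library of the series. The product name came to notice after the values were seen.

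Some weaker protein-coding members were seen in a single F1 library. AT4G08260, of the protein phosphatase 2C family, had 0, 0.737 and 0 TPM in F1 and 2.77, 1.41 and 2.59 in ddm1. Only 36.7% of its windows were unique, so the origin of its reads is uncertain. AT2G41590, annotated as a Ta11-like retrotransposon without terminal repeats, had 0.949, 0 and 0 TPM in F1 and 1.66, 1.96 and 0.855 in ddm1, so its groups overlapped. Both genes were chosen after their values were seen, and each had reads in 1 F1 library.

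Superfamilies differed in how the wild-type-silent loci were spread over the F1 to ddm1 ratio. Of 360 Gypsy loci, 125 (34.7%) were members, 190 (52.8%) lay below a ratio of 0.1 and 45 (12.5%) at 0.4 or more. Of 139 CACTA loci, 40 (28.8%) were members, 23 (16.5%) lay below and 76 (54.7%) above. Members made up a larger share of Copia (45 of 74, 60.8%), LINE (48 of 80, 60%) and MULE loci (19 of 32, 59.4%). The median F1 level as a percent of ddm1 was 8.74% over all Gypsy loci, 41.7% over CACTA, 32.5% over Copia, 29.7% over LINE and 30.6% over MULE loci. Since every locus was placed by its own F1 and ddm1 levels, these counts describe the loci and were not tested.

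Among loci with 90% or more unique windows, the Gypsy median was 25.2% (121 loci), the CACTA median 48.7% (38 loci) and the LINE median 32.1% (62 loci). The Gypsy median was thus higher among loci with mostly unique sequence, and it was still the lowest of these 3. Within the members, whose ratio is bounded, the medians were 23.3% for unassigned loci, 23.5% for Gypsy, 26.0% for CACTA, 26.7% for Copia and LINE, 29.6% for MULE and 35.8% for the 4 hAT members. Gypsy members held 39.0% of the members' ddm1 TPM and CACTA members 26.4%. Summed Gypsy members reached 182, 159 and 289 TPM in F1 and 970, 989 and 979 in ddm1. Summed CACTA members reached 155.1, 161 and 175 TPM in F1 and 610, 614 and 766 in ddm1. F1 library 3 stood apart in the Gypsy sum more than in the CACTA sum. It was the highest F1 library for 80 of the 125 Gypsy members, 18 of the 40 CACTA members and 196 of all 382 members.

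**Figure D3:**
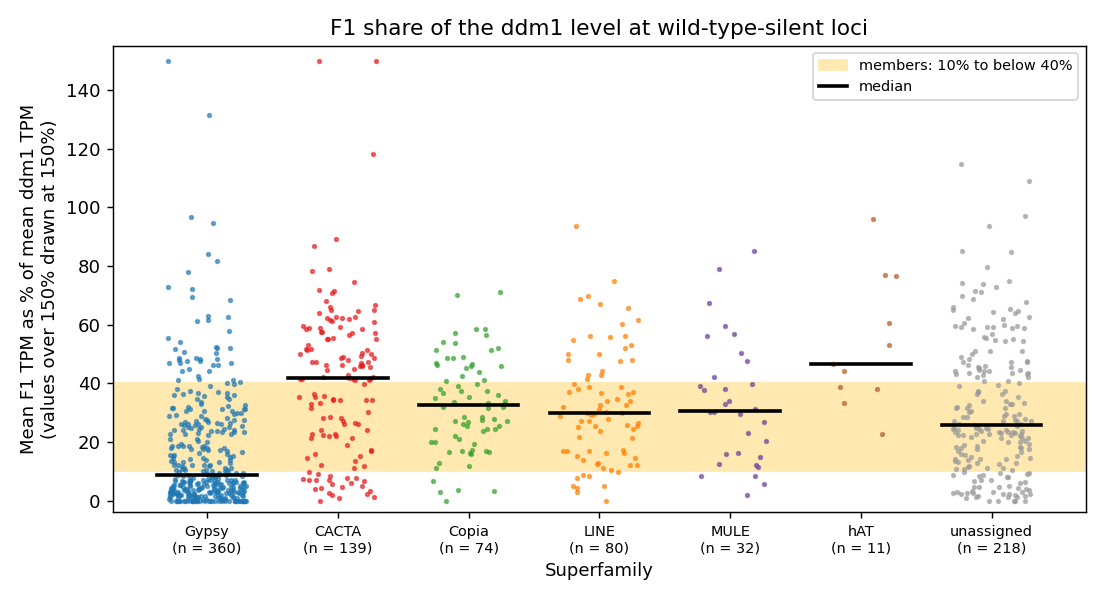
Mean F1 TPM as a percent of mean ddm1 TPM (y axis) for every wild-type-silent locus (points), by superfamily (x axis), with black bars at the medians and the members' range of 10% to below 40% shaded. The Gypsy median of 8.74% lies below the shaded range and the CACTA median of 41.7% just above it, while Copia, LINE and MULE medians of 29.7% to 32.5% lie inside.

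Copies of a family did not always share a class. Copies were defined by at least 90% identity over at least 80% of the shorter locus, with lengths within a ratio of 50%. By that measure, 124 members had a copy among the wild-type-silent loci and 258 had none. There were 282 such pairs with a member, of which 74 joined members to each other. Another 147 joined a member to a locus below a ratio of 0.1, and 61 to a locus at 0.4 or more. A member with many copies entered many pairs, so the pairs are not independent. AT1G37160, for example, was the only member in a Gypsy family of 18 loci, of which 17 lay below. Of all 917 wild-type-silent loci, 41.7% were members. The largest family held 32 Gypsy loci, of which 2 were members and 30 lay below. Its ratios ran from 0% to 10.5% with a median of 2.01%, so the 2 members lay just over the lower bound. All 5 loci of an unassigned family led by AT2G14330 were members, with ratios of 11.6% to 29.4%. Reads of such copies may have been shared, so only 7 pairs had 90% or more unique windows in both copies. Of these 7, 2 joined members to each other, 1 reached below and 4 reached above.

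The clearest of the 7 pairs joined the hAT member AT3G45270 (chromosome 3, 16601323 to 16603563, minus strand) to the hAT locus AT2G05700 on chromosome 2, which was not a member. The pair was singled out after its values were seen. Over 2023 aligned bases the copies were 95.1% identical, and 95.5% and 94.8% of their windows were unique. The stretch of 120 aligned bases with the most differences is shown for each gene on its own strand (TAIR10, chr3:16603393-16603512, minus strand, and chr2:2134668-2134787, plus strand). Capitals mark the 11 bases that differ and by which reads can be told apart.
AT3G45270: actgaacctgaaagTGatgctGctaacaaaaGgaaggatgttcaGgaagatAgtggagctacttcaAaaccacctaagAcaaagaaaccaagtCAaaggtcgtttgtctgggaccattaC
AT2G05700: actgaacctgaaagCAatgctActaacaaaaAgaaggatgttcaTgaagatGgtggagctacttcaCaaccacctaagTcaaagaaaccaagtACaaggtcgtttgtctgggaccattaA

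AT3G45270 had 0.146, 2.31 and 0 TPM in F1, from 6, 104 and 0 counts, and 3.99, 3.54 and 3.34 TPM in ddm1. AT2G05700 had 4.87, 5.40 and 4.88 TPM in F1, from 197, 238 and 210 counts, and 7.98, 5.12 and 6.60 TPM in ddm1. The member was thus highest in F1 library 2, still below every ddm1 library, and at or near 0 in the other two, whereas its copy was even across the F1 libraries.

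Uneven levels among F1 libraries were common. Of the 382 members, 309 had counts in all 3 F1 libraries, 61 had none in 1 library and 12 had none in 2. For 210 members the mean F1 count was 20 or more, enough to compare libraries. Among these the highest F1 library exceeded the lowest by a median of 2.28-fold, leaving out 10 members with an F1 library at 0, against 1.51-fold among ddm1 libraries. The gap was over 5-fold, or the lowest library was at 0, in 45 members in F1 and in 7 in ddm1. The coefficient of variation left after subtracting counting noise, on counts scaled to nuclear totals, had a median of 0.406 in F1 and 0.210 in ddm1, and was larger in F1 for 153 of the 210. With 3 libraries each, single values of this measure are imprecise. For the 101 of them with 90% or more unique windows, the medians were 0.393 in F1 and 0.209 in ddm1.

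For loci at a ratio of 0.4 or more with the same count minimum (226 loci), the medians were 0.244 in F1 and 0.228 in ddm1. For those below 0.1 (59 loci), they were 0.953 in F1 and 0.214 in ddm1. Members thus lay between the other sets in F1, while the 3 medians in ddm1 were close. The F1 mean entered the rule, so this order is a description.

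In 10 of the 210 members an F1 library was at 0, and the 4 of these with the highest F1 mean are given. AT4G06531, a Gypsy gene, had 1.18, 0 and 6.76 TPM in F1 and 26.9, 26.6 and 20.1 in ddm1. AT1G33570, a Copia gene, had 0, 4.05 and 1.15 TPM in F1 and 8.19, 9.33 and 6.17 in ddm1. AT4G06712, a Gypsy gene, had 0.194, 0 and 2.54 TPM in F1 and 6.29, 3.78 and 8.95 in ddm1. AT5G15360, described above, was the fourth. The library at 0 was not the same one in each. Over the 45 members with such gaps, the highest F1 library was library 1 in 7, library 2 in 10 and library 3 in 28.

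Other members were nearly constant in F1. AT3G27327, a Copia gene, had 0.655, 0.636 and 0.672 TPM in F1 and 2.30, 1.94 and 1.90 in ddm1. AT2G10540, a Gypsy gene, had 0.821, 0.898 and 0.868 TPM in F1 and 2.23, 1.88 and 3.0 in ddm1. AT5G28524, a CACTA gene, had 2.25, 2.03 and 2.08 TPM in F1 and 8.37, 4.30 and 5.36 in ddm1. AT3G24680, a LINE gene, had 1.2, 1.07 and 1.05 TPM in F1 and 2.93, 3.03 and 4.98 in ddm1. In each of these 4 the F1 libraries varied less than the ddm1 libraries and lay below them. The 4 were chosen for the smallest F1 gaps of the 210 members, so their small F1 spread follows from the choice. It did not exceed counting noise.

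**Figure D4:**
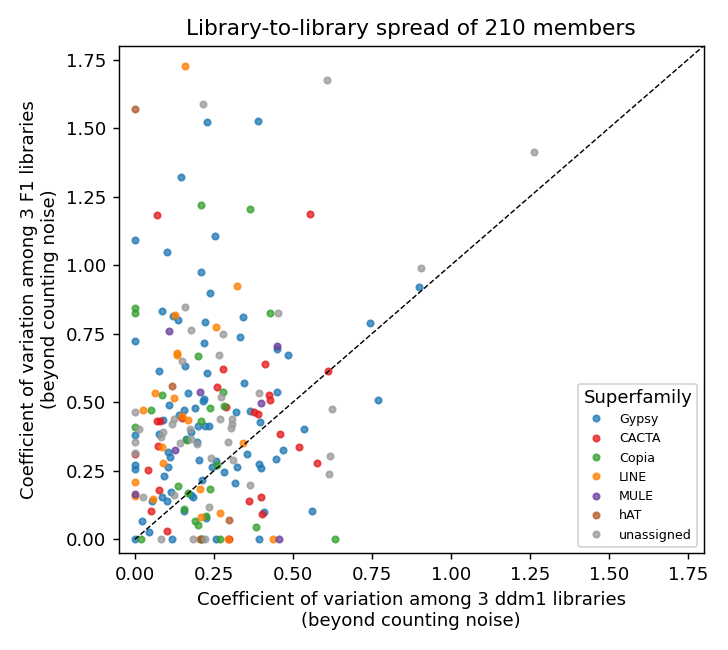
Coefficient of variation among the 3 F1 libraries (y axis) against that among the 3 ddm1 libraries (x axis), both after counting noise was subtracted, for the 210 members with a mean F1 count of 20 or more, coloured by superfamily. The dashed line marks equal spread, and 153 members lie above it, with medians of 0.406 in F1 and 0.210 in ddm1.

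Most members lay in the pericentromeres, the TE-rich heterochromatin around each centromere, taken as 2.5 Mb on either side of the place on each chromosome where TE genes are densest, counted in windows of 1 Mb. The share was 302 of 382 (79.1%), against 86.2% of the loci below a ratio of 0.1, 78.3% of those at 0.4 or more and 76.1% of all TE genes. Of the members outside, 21 were LINE, 18 Copia, 9 CACTA, 6 Gypsy and 5 MULE genes, and 21 were unassigned. Thus 95.2% of Gypsy members and 56.2% of LINE members were pericentromeric. The median F1 level as a percent of ddm1 was 23.9% for the 80 members outside and 24.4% over all members. Beyond 5 Mb from the centre, 37 of 61 wild-type-silent loci (60.7%) were members, against 169 of 424 (39.9%) within 1 Mb. The share was 42.0% of 317 loci at 1 to 2.5 Mb and 38.1% of 113 at 2.5 to 5 Mb, so it did not rise steadily with distance.

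The members' median share of unique windows was 90.3%, against 70.7% for loci below a ratio of 0.1 and 93.1% for those at 0.4 or more. Their median number of CG sites per 100 bases was 2.61, against 2.81 and 2.32. Within 5 kb, 149 members (39.0%) had another wild-type-silent locus. In 38 of the 133 such pairs both loci were members, in 50 the neighbour lay below and in 45 above. Every pair held a member by construction and a pair of members was counted once, so these counts are a description. They cannot be set directly against the 41.7% of all wild-type-silent loci that were members.

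**Figure D5:**
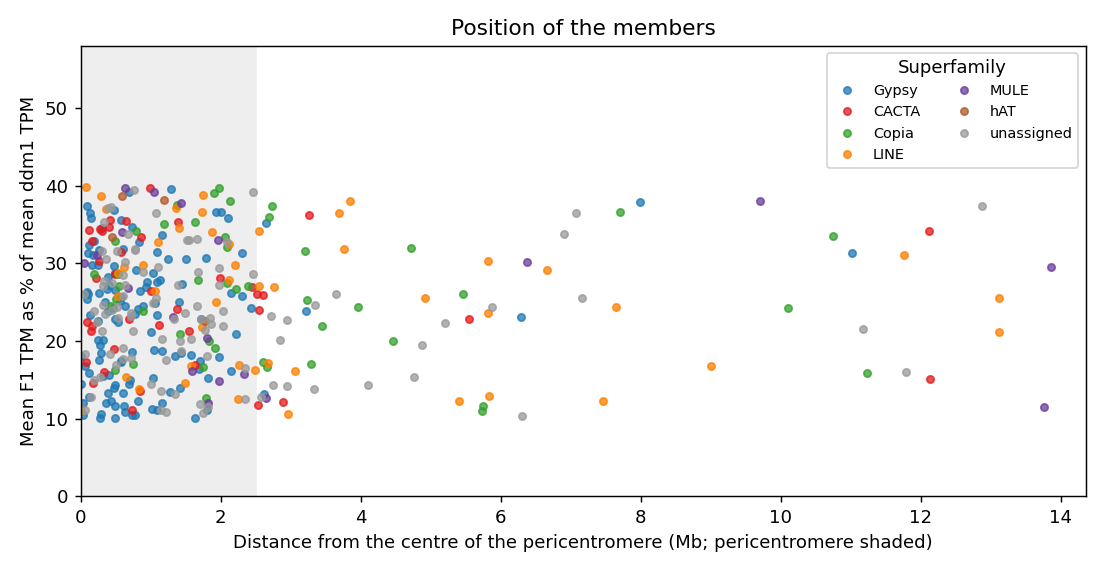
Mean F1 TPM as a percent of mean ddm1 TPM (y axis) of each member (points, coloured by superfamily) against its distance from the centre of the pericentromere in Mb (x axis; 2.5 Mb on either side is shaded). Of the 382 members, 302 fall in the shaded part, including 95.2% of the Gypsy members, and both low and high values occur inside and outside the shaded part.

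Differential expression was fitted over all loci with edgeR's quasi-likelihood test, Benjamini-Hochberg adjustment and an adjusted p under 0.05 as the threshold for a call. The filter on low counts kept 381 of the 382 members, leaving out the MULE gene AT1G78095. Of 18216 tested loci, 23.2% were called in F1 against Col-0 (13.5% higher, 9.66% lower) and 7.37% in ddm1 against Col-0 (6.87% higher, 0.5% lower). Members called higher numbered 326 in F1 and 362 in ddm1, and none were called lower. The rule made those contrasts, so nothing is read from these counts.

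The rule did not choose the loci next to the members. Within 2 kb of a member's span lay 415 other nuclear loci, of which 108 could be tested. Against Col-0, 35 flanking loci rose and 7 fell in F1, and 29 rose and 1 fell in ddm1. Called either way, these were 38.9% in F1, against 20.6% of all tested nuclear loci that were not themselves wild-type-silent, and 27.8% in ddm1, against 2.62%. Of those background loci, 10.3% were higher in F1 and 2.09% in ddm1. Next to loci below a ratio of 0.1, 49.2% of 59 tested loci were called in F1 and 59.3% in ddm1. Next to loci at 0.4 or more, 48.3% of 58 were called in F1 and 46.6% in ddm1. The shares next to members were thus the lowest of the 3 sets. TE genes were 37 of the 108 tested loci next to members, 34 of the 59 and 27 of the 58. Both contrasts share the Col-0 libraries and are not independent.

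The flanking loci that rose were mainly TE genes. Of 37 tested flanking TE genes, 27 rose in F1 (73.0%) and 26 in ddm1 (70.3%). Among all 406 tested TE genes that were not wild-type-silent, 61.3% rose in F1 and 64.8% in ddm1, so the flanking TE genes were near the share for TE genes in general. No flanking TE gene fell, against 0.985% of the 406 in F1 and 1.48% in ddm1. Of 71 other flanking loci, 8 rose and 7 fell in F1, against 9.10% and 10.5% of the 16751 other tested loci, and 3 rose and 1 fell in ddm1, against 0.567% and 0.507%. The 3 that rose in ddm1 were AT2G02103, annotated as a Ta11-like retrotransposon without terminal repeats, and the transcribed pseudogenes AT4G08093 and AT5G59630. They were outside the TE genes only by the definition used here or had no named product. No test of these shares was made.

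The same 5 flanking TE genes had the lowest adjusted p in both contrasts, and all lay on the strand of their member. Each had 1 to 3 counts over the Col-0 libraries, so a ratio to Col-0 is given for the first alone, with a 95% exact interval that covers counting error only. AT2G13000, 245 bases from AT2G12990 and overlapping the same CACTA element, had 23.2, 32.7 and 27.3 CPM in F1, 94.3, 93.4 and 124 in ddm1 and at most 0.0419 in Col-0. Its ratio to Col-0 was 1816 in F1 (interval 325 to 71772; adjusted p = 2.54e-06) and 6673 in ddm1 (1197 to 263615; adjusted p = 9.57e-07). AT3G32230, 1548 bases from the CACTA member AT3G32226, had 81.2, 56.8 and 92.2 CPM in F1, 146, 192 and 151 in ddm1 and at most 0.0499 in Col-0 (edgeR adjusted p = 2.54e-06 in F1 and 1.28e-06 in ddm1). These neighbours thus had the group order of the members, with F1 between ddm1 and Col-0.

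AT1G42050 lay 1425 bases from the Gypsy member AT1G42040. The midpoint of AT1G42040 and the span of AT1G42050 lay within the same paired long terminal repeats (chr1:15703960-15715037), so they were taken as parts of the same element. AT1G42050 had 153, 82.7 and 116 CPM in F1, 320, 380 and 519 in ddm1 and at most 0.0839 in Col-0 (edgeR adjusted p = 3.46e-06 in F1 and 1.55e-06 in ddm1). AT3G30663, next to the Gypsy member AT3G30665, had 7.28, 12.9 and 9.15 CPM in F1 and 19.3, 22.8 and 14.6 in ddm1 (edgeR adjusted p = 8.56e-06 in F1 and 3.49e-06 in ddm1). AT1G36260, next to the CACTA member AT1G36270, had 69.0, 53.5 and 99.7 CPM in F1 and 101, 172 and 167 in ddm1 (edgeR adjusted p = 7.20e-06 in F1 and 3.75e-06 in ddm1). In all 5 genes the F1 libraries lay below the ddm1 libraries. F1 and ddm1 were not tested against each other here.

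A flanking protein-coding gene went the other way. SHM7 (AT1G36370), a serine hydroxymethyltransferase gene whose enzyme class interconverts serine and glycine, lay 806 bases from the LINE member AT1G36360 on the opposite strand. It had 21.0, 19.0 and 16.8 CPM in F1, 22.3, 19.6 and 24.0 in ddm1 and 176, 117 and 77.3 in Col-0. It fell by 2.70 on the log2 scale in F1 (SE 0.31, edgeR adjusted p = 0.000302) and by 2.49 in ddm1 (SE 0.31, edgeR adjusted p = 0.000459). The F1 and ddm1 libraries were alike and all lay below Col-0. AT1G36360 itself was weak, with 0, 0.149 and 0.0253 TPM in F1 and 0.136, 0.357 and 0.204 in ddm1. SHM7 was singled out after its values were seen, as the 1 flanking locus that fell in ddm1.

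Genes of the silencing machinery were taken as a list of 43, of which 38 could be tested. In F1 2 fell and 2 rose, against 9.66% and 13.5% of all tested loci. CMT3, the methyltransferase of CHG sites, had 0.231, 0.801 and 0.462 CPM in F1 and 1.45, 5.75 and 1.89 in Col-0 (log2 fold change -2.59, SE 0.69, edgeR adjusted p = 0.0259). DML3, a DNA demethylase gene, had 0.693, 0.114 and 0.416 CPM in F1 and 3.04, 2.60 and 1.43 in Col-0 (log2 fold change -2.51, SE 0.75, edgeR adjusted p = 0.0397). The linker histone genes H1.1 and H1.2 rose by log2 fold changes of 1.94 (SE 0.22, edgeR adjusted p = 0.000302) and 1.85 (SE 0.29, edgeR adjusted p = 0.00201). H1.1 had 41.1, 41.4 and 26.7 CPM in F1 and 8.18, 9.87 and 10.3 in Col-0. The CMT3 call was lost without F1 library 1, F1 library 3 or Col-0 library 2, and the DML3 call in 6 of 9 fits with a library left out.

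In ddm1 none of the 38 was called by edgeR or DESeq2, with 2 at an unadjusted p under 0.05, and the log2 fold changes ran from -1.46 to 0.84 with a median of 0.02, against 0.03 over all loci. Their median in F1 was -0.14, against 0.12 over all loci.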

How the data were processed

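Leaf RNA-seq libraries of 3 F1, 3 ddm1 and 3 Col-0 samples were analysed. The authors deposited estimated counts and TPM per target, with the column names that kallisto writes, per the file headers. Kallisto 0.46.0 and TAIR10 are listed in the submitters' processing notes. Its index and its strand option were not given in the labels, so reads of overlapping, antisense or near-identical loci may have been shared between targets. The library kit was directional, per the labels' protocols.

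The members and all lists were chosen with earlier results of these data known. Each of 33602 loci had 1 target, and 32835 were found in the RefSeq gene annotation (assembly TAIR10.1, with the nuclear coordinates of TAIR10). A locus counted as a TE gene when RefSeq lists it as a pseudogene that has an mRNA, names its product only as uncharacterized and does not call it the pseudogene of a named gene. Superfamilies were assigned by translated similarity (tblastx of BLAST 2.17.0, cutoff 1e-10), summing the scores of the 5 best seed loci. Of 457 seeds, 441 were kept after pruning by their own best matches. Of these, 437 could be assigned when left out and all 437 kept their label, a check that the pruning favours. Element ends were searched over 1500 to 20000 bases for CACTA elements, and with repeats of 100 to 3000 bases and at least 80% identity for long terminal repeats.

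Counts were rounded and fitted over all 9 libraries with edgeR 4.0.16 (R 4.3.3; TMM, filterByExpr, robust quasi-likelihood). CPM are TMM-normalised with organelle loci in the total. On simulated data, 184 of 200 loci changed 4-fold were recovered for ddm1 against Col-0 among 18143 loci, with 9 false calls. The changed loci were drawn from those with a mean above 5 CPM, and every locus was given the same median dispersion. Recovery of weaker or more variable loci was not tested. DESeq2 1.42.0 was an alternative. Replicates differed by more than counting noise in every pair (chi-square of at least 21.9 per locus). Spread and intervals cover these samples, and counting error only where said. Named loci were the 8 members and 6 protein-coding members highest in ddm1, the 4 with the largest and the 4 with the smallest F1 gaps (ties at 0 broken by F1 mean), those next to the ratio bounds, the 5 flanking loci with the lowest adjusted p in each contrast and every called silencing gene.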

Additional observations from a re-analysis of the deposited data

How the results depend on the processing

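The rule found 354 members on TMM-normalised CPM (339 of them shared with the 382), 360 on TPM of nuclear loci only (349 shared), 250 with a ddm1 minimum of 30 counts, and 351 to 454 with a library left out. Of the members, 194 had 90% or more unique windows, a setting chosen after seeing the data, and their summed F1 level was 25.5% of ddm1. The summed F1 level as a percent of ddm1 was 26.9% on CPM and 21.1% to 25.1% with a library left out. Flanking loci called in F1 numbered 20 within 1 kb, 81 within 5 kb and 31 to 47 with a library left out. In ddm1 they numbered 14 within 1 kb, 51 within 5 kb, 57 with DESeq2, which tested 207 of them instead of 108, and 29 to 37 with a library left out. Silencing genes called in F1 numbered 7 with DESeq2 and 2 to 8 with a library left out, with 2 without F1 library 1 or Col-0 library 2 and 8 without F1 library 3. None was called in ddm1 under any of these settings. The 5 named flanking TE genes, SHM7, H1.1 and H1.2 kept their calls in all 14 refits of the model, with adjusted p of at most 0.0127. The cause of these changes was not tested, except that a wider or narrower window holds more or fewer loci.

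Libraries with the same replicate number did not deviate together across all 3 groups. Their correlations ran from -0.43 to 0.20 and 2 of 9 exceeded 0.1. Between F1 and ddm1, however, the same-number pairs were at 0.06, 0.20 and 0.20, and the other pairs ran from -0.19 to 0.09. Whether the numbers pair F1 with ddm1 libraries was not tested, and the main fit used no pairing. With the replicate block, 33 flanking loci in F1 and 29 in ddm1 and 3 silencing genes in F1 were called, DML3 being lost. The TMM scaling left a median log2 fold change of 0.12 over all loci in F1, against 0.06 with RLE factors and 0.01 with DESeq2. Depth limits the weaker members, since only 210 of the 382 had a mean of 20 or more counts in F1.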
